A study of Mus musculus with 2 samples.

Results

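The 6 miRNA genes that lie inside the mouse Hox clusters and belong to the miR-10, miR-196 and miR-615 families were followed in the adrenal gland. They are Mir10a, Mir10b, Mir196a-1, Mir196a-2, Mir196b and Mir615, taken by name from the 2202 miRNA genes of the deposited count tables, and all 6 were found. The tissue came from adult female mice of the strain 5xFAD/CAST, aged 8 to 10 months. The 5xFAD transgenes model Alzheimer's disease, CAST names an inbred strain of wild castaneus origin, and the labels do not say which animals carried the transgenes. There was 1 group with 2 libraries, biological replicates 1 and 2, and no other tissue, genotype or treatment. The biosamples were separate but shared a donor identifier. SDs therefore describe the spread between these samples, which may be technical. Fisher's exact test and the exact binomial test below cover counting error alone, and no p-value here can be taken to cover a spread between animals.

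Hox genes sit in 4 clusters and are used along the body axis in the order in which they lie on the chromosome: genes at one end of a cluster are active from the hindbrain backwards, and genes at the other end only in the lower trunk and tail. Adult cells often keep the Hox pattern of the place in the embryo from which they came, and the adrenal gland is built from trunk mesoderm (the steroid-making cortex) and trunk neural crest (the catecholamine-making medulla). MiRNA genes of the clusters are used along the axis in a like way, and their products can repress Hox mRNAs: miR-196 directs cleavage of Hoxb8 mRNA in the mouse embryo. A miRNA finds its targets mainly through its seed, bases 2 to 8 of the mature strand.

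The mature sequences that define the families are given 5′ to 3′ from the RefSeq miRNA table for GRCm38.p6, with the seed in capitals, because the seeds divide the 6 genes into families and the identical strands limit what could be counted.
miR-10a-5p: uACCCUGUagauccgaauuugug
miR-10b-5p: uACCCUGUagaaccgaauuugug
miR-196a-5p: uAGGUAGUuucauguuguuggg
miR-196b-5p: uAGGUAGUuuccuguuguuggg
miR-615-5p: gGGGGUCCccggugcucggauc
miR-615-3p: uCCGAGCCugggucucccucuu
MiR-10a-5p and miR-10b-5p carried the same seed and were identical at 22 of 23 bases, with the single substitution U12A counted from the 5′ end (miR-10a first). MiR-196a-5p and miR-196b-5p also carried 1 seed and matched at 21 of 22 bases, with the substitution A12C (miR-196a first). Among 1679 mouse mature sequences, no others had the miR-10 or the miR-196 seed at this place, and each arm of miR-615 had a seed of its own. The letters of the miR-196 seed also occur shifted by 1 base, starting at position 3, in 8 of 11 let-7 family 5p sequences, and in 13 of all 1679 sequences at any position (0.774%).

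MiR-196a-5p is made from 2 genes on different chromosomes. Their hairpins are shown with the 5p strand in capitals beside that of Mir196b, since outside this strand the precursors differ.
Mir196a-1: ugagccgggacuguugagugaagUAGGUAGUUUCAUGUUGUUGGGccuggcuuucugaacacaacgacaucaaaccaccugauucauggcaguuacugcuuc
Mir196a-2: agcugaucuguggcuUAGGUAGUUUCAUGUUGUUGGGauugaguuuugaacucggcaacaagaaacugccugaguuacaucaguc
Mir196b: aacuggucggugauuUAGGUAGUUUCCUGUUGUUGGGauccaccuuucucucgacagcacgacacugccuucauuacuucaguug
The longest stretch that the hairpins of Mir196a-1 and Mir196a-2 share was 22 bases, the whole mature strand, so a read of that strand alone cannot be placed on one of them. The tables keep multimapping reads in an entry of their own and not on genes. For both Mir196a genes the levels below are therefore those of reads that could be placed. Mir10a and Mir10b shared at most 15 bases and Mir196a-2 and Mir196b at most 12, and the mature strands of Mir10a, Mir10b, Mir196b and Mir615 each matched 1 miRNA gene of the annotation. Only annotated transcripts were searched, so other copies in the genome were not looked for.

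On the mm10 map with the GENCODE M21 annotation, both miR-10 genes lay just on the posterior side of a group 4 Hox gene. Mir10a (ENSMUSG00000065519.1) lay at chr11:96317165-96317274 on the plus strand, between genes, 1495 bases from the coding part of Hoxb4 and 12030 bases from that of Hoxb5. Mir10b (ENSMUSG00000065500.3) lay at chr2:74726070-74726137 on the plus strand, 1141 bases from the coding part of Hoxd4 and 19260 bases from Hoxd8, within introns of Hoxd4 and Hoxd3 transcripts. The 3 miR-196 genes all lay on the posterior side of a group 9 Hox gene. Mir196a-2 and Mir196b were nearer to a group 10 gene. Mir196a-2 (ENSMUSG00000065488.2), at chr15:102973350-102973434 on the plus strand, was between Hoxc9 (8218 bases) and Hoxc10 (2277 bases) and in an intron of a long Hoxc5 transcript. Mir196b (ENSMUSG00000065443.1), at chr6:52230081-52230165 on the minus strand, was between the coding parts of Hoxa9 (3976 bases) and Hoxa10 (2343 bases). It was in a non-coding exon of 2 Hoxa9 transcripts and an intron of another. Mir196a-1 (ENSMUSG00000065546.1), at chr11:96265164-96265265 on the plus strand, was between genes, 6276 bases from Hoxb9 and 68937 bases from Hoxb13.

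Mir615 (ENSMUSG00000076010.1) lay at chr15:103014910-103015001 on the plus strand, inside an intron of Hoxc5, between Hoxc4 and Hoxc6. The comparison was set up with Mir615 among the posterior genes. The map goes against that label, since its place between groups 4 and 6 is like that of the miR-10 genes, and the ratio of anterior to posterior reads is also given without Mir615. Outside these 6, the annotation placed 1 further miRNA gene inside a Hox cluster, Gm44463 in HoxD, which had 0 reads on either strand in both libraries.

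**Figure D1:**
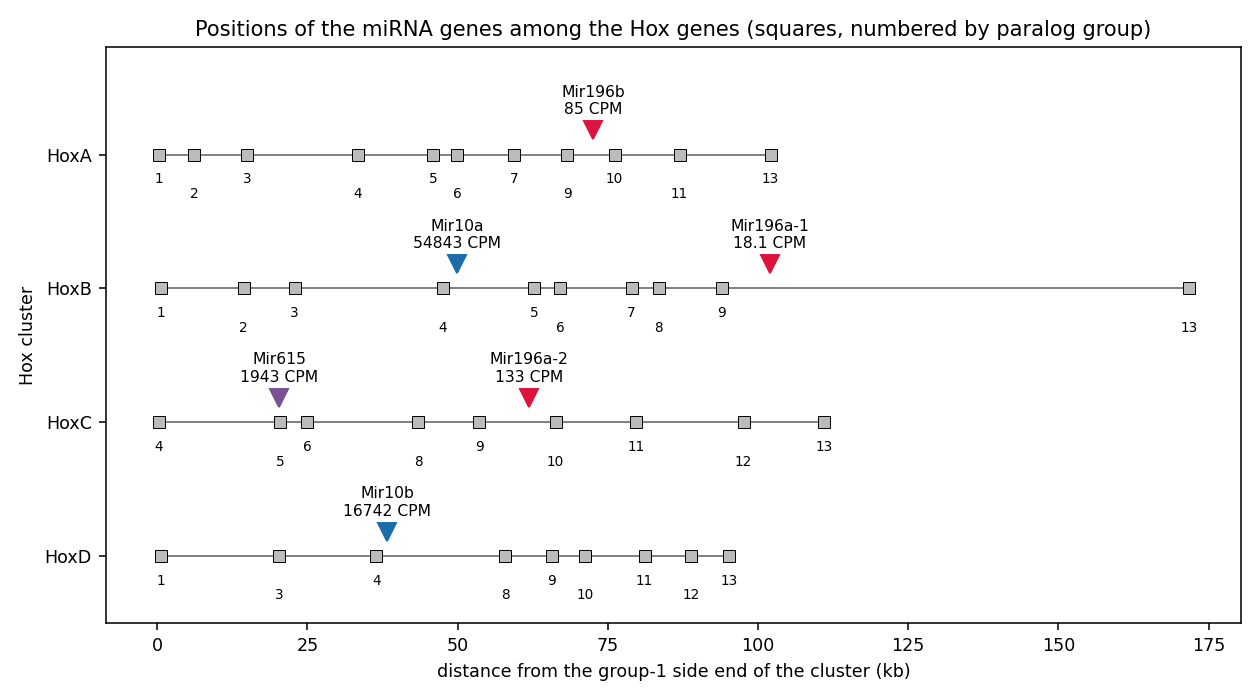
Positions of the 6 miRNA genes (triangles, with mean CPM over the 2 libraries) among the Hox genes (squares, numbered by paralog group) of the 4 clusters; the horizontal axis is the distance in kilobases from the end of the cluster that holds its lowest-numbered Hox gene. Mir10a, Mir10b and Mir615 sit between groups 4 and 8 with means of 54843, 16742 and 1943 CPM, and the 3 miR-196 genes sit beyond group 9 with means of 133, 85.0 and 18.1 CPM.

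Levels are in CPM, the reads of a gene per 1000000 reads on miRNA genes, counted on 1 strand. Replicate 1 held 3635851 and replicate 2 held 6924829 such reads, out of 7774567 and 15391360 reads in all. At these depths a gene with no read could still have a level of up to 0.825 and 0.433 CPM (3 reads). All 6 genes had at least 10 reads in each library, as did 356 of the 2202 genes of the tables (16.2%). Intervals and floors cover counting error only, because PCR copies cannot be told from separate molecules. The share of miRNA-gene reads on the 6 genes was 7.79% for replicate 1 (95% interval by Clopper-Pearson, 7.77 to 7.82%) and 6.96% for replicate 2 (6.94 to 6.98%).

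Markers of endocrine cells and of vessels were abundant. All 4 endocrine markers were detected, with a summed level of 50709 CPM in replicate 1 and 48363 CPM in replicate 2, most of it from Mir375. The endothelial marker Mir126a had 56684 and 41532 CPM, and the smooth muscle markers Mir143 and Mir145a summed to 23925 and 21489 CPM. Mir122 of liver had 78.1 and 108 CPM, the kidney and gut markers (2 of 4 detected) summed to 57.2 and 34.1 CPM, and the striated muscle markers (1 of 6 detected) summed to 5.50 and 5.34 CPM. Some markers, such as Mir1a-1 and Mir1a-2 of muscle or Mir194-1 and Mir194-2 of kidney and gut, come as gene pairs that share a mature strand, and reads matching both genes of a pair are not in these sums, so no low amount of those tissues can be read from them. Leukocyte markers summed to 1147 and 854 CPM, red cell markers to 427 and 175 CPM and epithelial markers to 50.1 and 37.3 CPM. In bulk tissue, a low level in many cells and a high level in few cells cannot be told apart, and no marker list here separates cortex from medulla.

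Mir10a and Mir10b, the genes beside group 4 Hox genes, were the most abundant of the 6. Mir10a had 212746 reads in replicate 1 and 354359 in replicate 2, which is 58513 and 51172 CPM (54843 ± 5191, SD, n = 2). This put it at rank 3 of all 2202 genes by mean level, with 5.85% (5.83 to 5.88%) and 5.12% (5.10 to 5.13%) of all miRNA-gene reads. Neighbours in the list of all genes were taken by mean log2 level, which need not give the order of the mean CPM. Mirlet7g, the next gene above Mir10a, had 85732 and 111369 CPM, and Mir126a, the next below, had 56684 and 41532 CPM; Mir10a stood between them in both libraries.

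Mir10b had 61978 and 113832 reads, or 17046 and 16438 CPM (16742 ± 430.0, SD, n = 2), at rank 18. Its 2 libraries differed by little, with an SD of 2.57% of the mean. By mean log2 level the next below was Mirlet7e, which was lower in both libraries (13651 and 16336 CPM), while the order against Mir99a, the next above, held in 1 of 2 libraries. By mean CPM, Mir125a (21566 and 8671 CPM), named after its values were seen, stood between Mir10b and Mirlet7e, above Mir10b in replicate 1 and below it in replicate 2.

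Mir615, the intronic gene of Hoxc5, followed with 7717 reads in replicate 1 and 12214 in replicate 2. Its level was 2122 and 1764 CPM (1943 ± 254, SD, n = 2), rank 51. Mir93, next above it by mean log2 level, had 2232 and 1809 CPM and was higher in both libraries. Mir351, next below it by that measure and above it by mean CPM, had 2272 and 1639 CPM, higher than Mir615 in replicate 1 and lower in replicate 2.

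By reads that could be placed, the 3 miR-196 genes were the least abundant. Together they held 0.0248% of miRNA-gene reads in replicate 1 and 0.0225% in replicate 2. Mir196a-2 in HoxC had 494 and 905 reads, or 136 and 131 CPM (133 ± 3.66, SD, n = 2), rank 161. Mir196b in HoxA had 343 and 524 reads, or 94.3 and 75.7 CPM (85.0 ± 13.2, SD, n = 2), rank 185. Mir196a-1 in HoxB had 63 and 131 reads, or 17.3 and 18.9 CPM (18.1 ± 1.12, SD, n = 2), rank 267, still above the limit for a count of 0 in both libraries. The order Mir196a-2, Mir196b, Mir196a-1 was the same in both libraries and no values of neighbours in it overlapped. The nearest genes to each by mean log2 level were ones with which its order changed between libraries: Mir296 (162 and 125 CPM) and Mir210 (121 and 137 CPM) for Mir196a-2, Mir370 (89.7 and 79.9 CPM) and Mir1193 (106 and 66.7 CPM) for Mir196b, and Mir6236 (13.5 and 24.4 CPM) and Mir346 (21.5 and 15.0 CPM) for Mir196a-1.

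**Figure D2:**
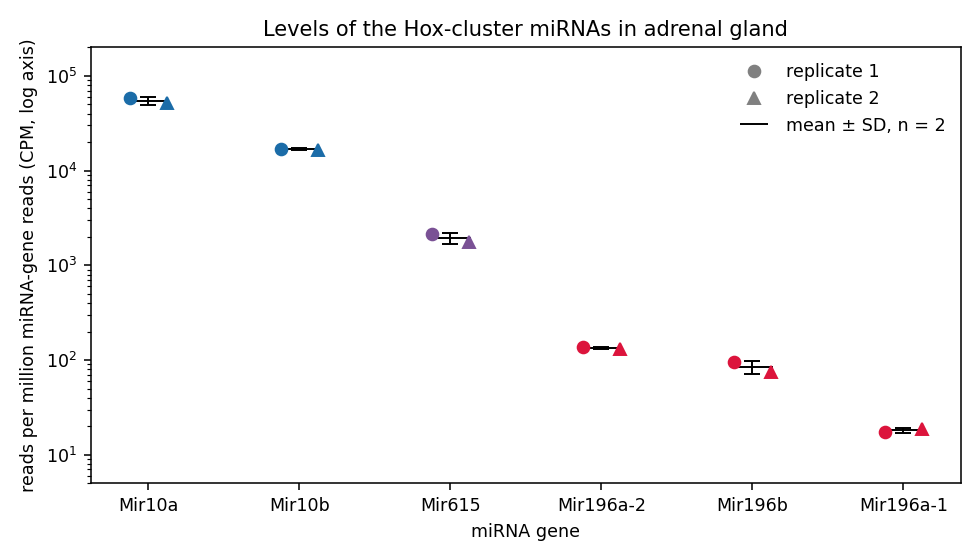
Level of each of the 6 genes in CPM on a log axis, with a circle for replicate 1, a triangle for replicate 2, and bars for the mean ± SD of the 2 libraries. The 6 genes fall in the same order in both libraries, from 54843 CPM for Mir10a to 18.1 CPM for Mir196a-1 on average.

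The comparison of positions asks how far the adrenal gland's miRNAs come from the anterior or the posterior end of the clusters. With the genes grouped as set up, Mir10a and Mir10b (anterior) held 7.56% of miRNA-gene reads in replicate 1 and 6.76% in replicate 2, and the miR-196 genes with Mir615 (posterior) held 0.237% and 0.199%. The anterior pair thus had 31.9 times the posterior reads in replicate 1 (exact binomial 95% interval 31.2 to 32.6) and 34.0 times in replicate 2 (33.4 to 34.6), a mean log2 ratio of 5.04 ± 0.065 (SD, n = 2). The anterior sum was higher in 2 of 2 libraries, and the exact two-sided sign-flip permutation test over libraries gave p = 0.5, the smallest value that 2 libraries allow. Both sums come from the same library, so the ratio does not depend on how libraries are scaled.

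By placed reads, the size of the ratio depended on where Mir615 was counted. Without it, the miR-10 genes had 305 times the reads of the miR-196 genes in replicate 1 (286 to 326) and 300.1 times in replicate 2 (286 to 316). With Mir615 placed by the map beside Mir10a and Mir10b, genes at groups 4 to 6 had 314 times (294 to 335) and 308 times (293 to 324) the reads of the miR-196 genes, a mean log2 ratio of 8.28 ± 0.019 (SD, n = 2). By placed reads, direction was the same in each of these groupings and in both libraries, with the same smallest sign-flip p of 0.5. Reads of the miR-196a-5p strand alone are missing from the miR-196 sums, so these ratios may overstate the difference. The intervals do not cover those missing reads.

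The reads that could not be placed bear on the posterior sum, since miR-196a-5p is among the strands that match 2 genes. Multimapping reads were 2454066 in replicate 1 and 5165270 in replicate 2, or 31.6% and 33.6% of all reads. The posterior sum would equal the anterior one only if a further 266107 and 454417 of them were posterior, which is 10.8% and 8.80% of these reads. Leaving out both Mir196a genes gave ratios of 34.1 and 36.8, with 7717 of 8060 and 12214 of 12738 posterior reads from Mir615. That setting removes placed reads only, so it cannot show what the unplaced reads would add. How many multimapping reads were miR-196a was not analysed here.

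Within each family the genes had unequal numbers of placed reads. Mir10a had 3.43 times the reads of Mir10b in replicate 1 (3.40 to 3.46) and 3.11 times in replicate 2 (3.09 to 3.13), a mean log2 ratio of 1.71 ± 0.10 (SD, n = 2, exact sign-flip p = 0.5, the smallest possible). Mir196a-2 exceeded Mir196b by 1.44 times (1.25 to 1.66) and 1.73 times (1.55 to 1.93), and Mir196a-1 by 7.84 and 6.91 times. Mir615 had 8.57 and 7.83 times the reads of the 3 miR-196 genes together. Reads of the miR-196a-5p strand alone are left out for both Mir196a genes. The ratios with a Mir196a gene therefore compare placed reads and need not give the order of the mature miRNAs. For the strands of Mir196b and Mir615 the annotation held no further miRNA gene, but the genome outside annotated transcripts was not searched. The mature arms of all 6 genes are 22 to 23 bases long, and per mature base the anterior pair had 31.2 and 33.2 times the posterior level. Capture of a small RNA also varies with its ends, and this was not measured here.

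By cluster, HoxB gave 75.1% of the placed reads of the 6 genes in replicate 1 and 73.6% in replicate 2. Nearly all came from Mir10a, since Mir196a-1 of the same cluster had the fewest placed reads of the 6. HoxD gave 21.9% and 23.6%, all from Mir10b. HoxC gave 2.90% and 2.72%, mostly from Mir615, and HoxA, which has Mir196b alone, gave 0.121% and 0.109%. Mir10a and Mir196a-1 are on the same strand of the same cluster with Hoxb5 to Hoxb9 between them. Mir10a had 3377 and 2705 times the placed reads. Reads of the miR-196a-5p strand alone are not in the Mir196a-1 count, so these ratios may overstate the difference.

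The miR-99 and miR-100 genes are relatives of miR-10 by sequence and lie outside the Hox clusters. Their 5p strands are printed with the seed in capitals to show that they share 1 seed, which is not that of miR-10.
miR-100-5p: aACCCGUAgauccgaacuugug
miR-99a-5p: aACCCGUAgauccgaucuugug
miR-99b-5p: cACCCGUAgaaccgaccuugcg
The longest stretch shared with miR-10a-5p was 11 bases for miR-100-5p and 10 bases for miR-99a-5p. Mir99a had 23677 CPM in replicate 1 and 13816 CPM in replicate 2 (18746 ± 6973, SD, n = 2, rank 17). Mir99b had 6389 and 3330 CPM (4859 ± 2163, SD, n = 2), and Mir100 had 2696 and 1887 CPM (2291 ± 572, SD, n = 2). All 3 were lower than Mir10a in both libraries. Their log2 ratios between replicates 1 and 2 were 0.78, 0.94 and 0.51, each above the range of the 6 Hox-cluster genes, which is given next.

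Replicate 1 was set against replicate 2 to see how firmly each level is known; both are of 1 group, so this compares libraries and no condition. A two-sided Fisher's exact test, adjusted by Benjamini-Hochberg over the 455 genes with at least 10 reads in both libraries together, called 239 genes, or 52.5% of those tested, and 4 of the 6: Mir10a, Mir10b, Mir615 and Mir196b. That test covers counting error alone. For edgeR's exact test, both libraries were taken as 1 group to estimate the dispersion, so the differences tested also set it. A gene that this second test does not call is therefore not shown to be equal between the libraries. edgeR's exact test, with 1 common dispersion estimated from both libraries, called 3 genes, or 0.659%, and none of the 6, whose adjusted p was 1. At an unadjusted p under 0.05 it had 23 genes and again none of the 6.

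In size, the differences of the 6 were small. The log2 ratio of replicate 1 over replicate 2 was 0.19 for Mir10a (called), 0.052 for Mir10b (Fisher's exact test, adjusted p = 9.24e-13), 0.27 for Mir615 (adjusted p = 7.09e-36), 0.057 for Mir196a-2 (adjusted p = 0.618), 0.32 for Mir196b (adjusted p = 0.00368) and -0.12 for Mir196a-1 (adjusted p = 0.699). The median absolute log2 ratio over the 356 detected genes was 0.40, and all 6 lay under it. That value is not matched for depth and includes genes with few reads, where counting error is larger. The median signed ratio over the 356 detected genes was 0.19, so Mir10a differed as the typical gene did. TMM scaling moved that median to 0.048 and DESeq2 size factors to 0.022, a shift of -0.14 and -0.17 for every gene. With them Mir10b turned to -0.092 and -0.12 and Mir196a-2 to -0.088 and -0.11. Mir196b was no longer called, with adjusted p = 0.142 and 0.217 in an exact binomial test.

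**Figure D3:**
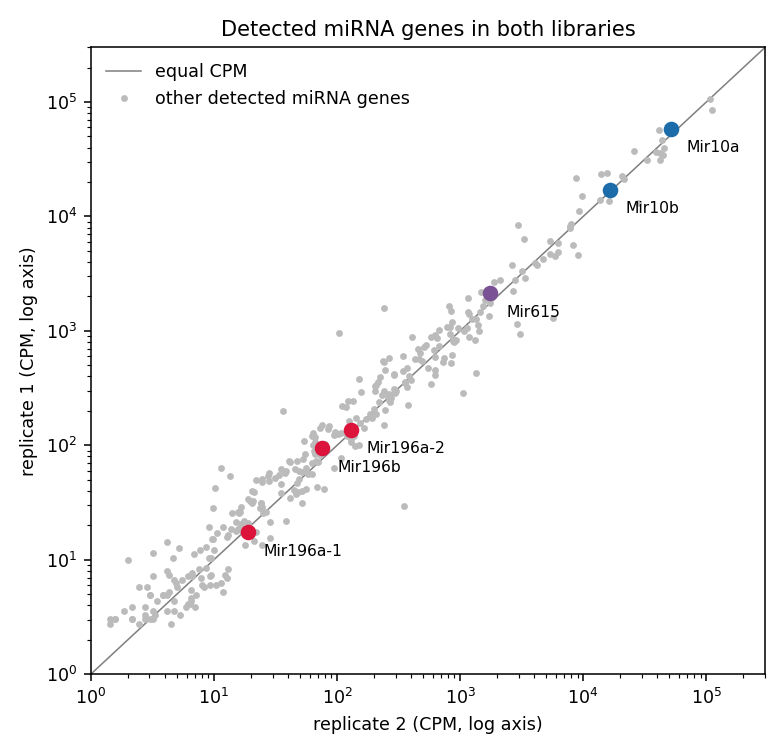
Level of each detected miRNA gene in replicate 1 (vertical axis, CPM, log axis) against replicate 2 (horizontal axis, CPM, log axis), with the 6 Hox-cluster genes in colour and the line of equal levels. The 6 lie close to the line over the whole span from 18.1 to 54843 CPM.

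**Figure D4:**
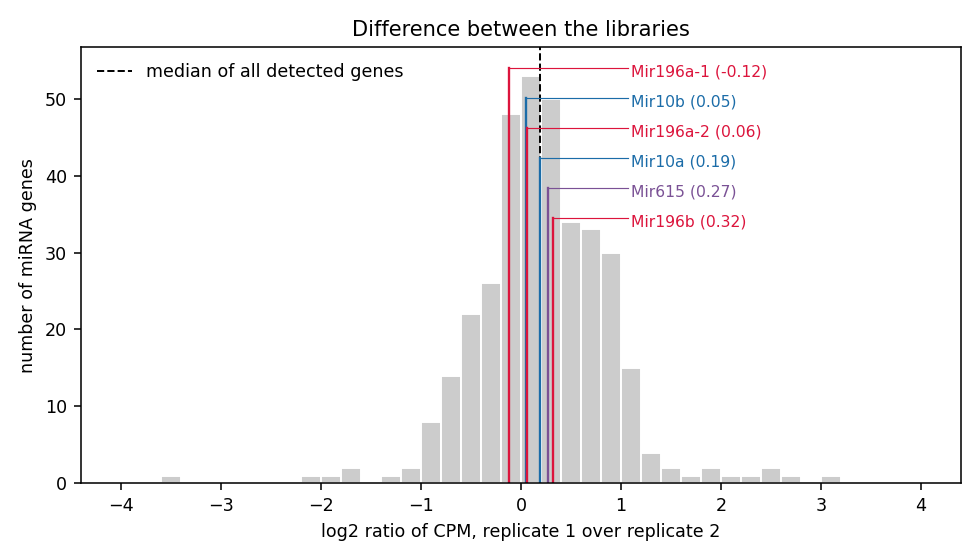
Number of detected miRNA genes by their log2 ratio of replicate 1 over replicate 2, with coloured lines at the ratios of the 6 Hox-cluster genes and a dashed line at the median of all detected genes, 0.19. The 6 lie between -0.12 and 0.32, in the middle of the distribution.

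A Hox mRNA is a known target of miR-196, so seed matches of all 3 families were counted in the annotated 3′ UTRs. Hox mRNAs were not measured here. The match to bases 2 to 8, on the mRNA strand only, was ACTACCT for miR-196, ACAGGGT for miR-10 and GGCTCGG for miR-615-3p. In the first 500 bases after the stop codon, ACTACCT occurred in 8 of the 34 Hox genes whose annotated 3′ UTR is that long (23.5%), against 283 of all 14295 genes with such a window (1.98%). Hoxa7, Hoxa9 and Hoxc8 were among the 8, and none of the 8 lay beyond group 9. ACAGGGT occurred in 1 of 34 Hox genes (2.94%), Hoxa3, against 684 of 14295 (4.78%), and GGCTCGG in 0 of 34 against 144 (1.01%).

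A site in each of 3 of these UTRs is shown with its match in capitals, together with the site of Hoxb8, the mRNA known to be cleaved, where capitals mark bases that pair with miR-196a by Watson-Crick rules.
Hoxa7: gagaggcactcccaaACTACCT
Hoxa9: gcaaaaggaaagaaaACTACCT
Hoxc8: acactcacaactctaACTACCT
Hoxb8: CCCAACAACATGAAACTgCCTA
The Hoxb8 site paired with miR-196a at 21 of 22 bases and by a G:U pair at the remaining 1, which lies in the seed. The next best ungapped pairing in a Hox 3′ UTR was that of Hoxd8, with 15 Watson-Crick pairs of 22. These matches describe letters in the annotation. The miRNA with the most matches in Hox UTRs, miR-196, had the fewest placed reads of the 3 families, at 0.0248% and 0.0225% of miRNA-gene reads. The most placed reads were those of miR-10, with a match in 1 Hox UTR window, at 7.56% and 6.76%. Reads were counted per gene, so these shares pool the arms of each hairpin, while each match is that of 1 arm. These shares leave out reads of the mature strand that both Mir196a genes share, since such reads could not be placed. They therefore cannot show where mature miR-196 stands in abundance among the families.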

How the data were processed

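Each library came as a table of raw counts deposited by the authors, covering 2202 miRNA genes and unplaced reads in 3 unnamed count columns. Assembly mm10 and GENCODE M21 are given per the deposited notes; how reads were trimmed, aligned and counted is not given in the sources used here. From the values, the columns were read as both strands, 1 strand and the other strand. The 1-strand column was used, with the both-strand column as a check. Unplaced entries stayed out of totals: unmapped reads were 16.1% and 16.5% of all reads in replicates 1 and 2, multimapping 31.6% and 33.6%, and reads on no miRNA gene 5.55% and 4.99%; the both-strand column also leaves out ambiguous reads, 6.12% and 5.24%.

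The 6 genes, the marker lists and the tests were chosen with earlier results of these data known. Besides the 6, the genes named are other miRNA genes within the Hox clusters, Mir99a, Mir99b and Mir100, the gene next above and next below each of the 6 in mean log2 level, and the markers; Mir125a is outside this rule. Log2 ratios between libraries used 0.5 added counts. With 1 library a side no residual degrees of freedom remain, so Fisher's exact test took the place of edgeR's quasi-likelihood test; edgeR's exact test under 1 common dispersion (biological coefficient of variation 32.2%), and an exact binomial test with TMM or DESeq2 library sizes, were alternatives. The threshold was an adjusted p of 0.05. Seed matches used the longest annotated 3′ UTR of a gene, and mature strands and hairpins came from RefSeq (GRCm38.p6). The tests between libraries were also run on simulated counts that held counting error alone. These lack the further spread between the real libraries, so they do not show how the tests behave on it. Python 3.11.15 was used with scipy 1.17.1, pandas 2.3.3, numpy 2.4.6 and, for figures, matplotlib 3.10.9; R 4.3.3 was used with DESeq2 1.42.0 and edgeR 4.0.16.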

Additional observations from a re-analysis of the deposited data

Results flagged for a closer look

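The other-strand column, which no comparison used, held 4 reads at Mir10a in replicate 2 and 1 read in replicate 1, against 354359 and 212746 reads on the gene's own strand. The 4 reads are 0.00113% of the reads at Mir10a in that library.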

How the results depend on the processing

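No paired analysis was possible because only 1 group exists and both replicates belong to it. The share of reads on the 6 genes was 8.42% with the both-strand column and 3.39% with all reads as the denominator, and 6.96 to 7.79% when either replicate was left out. The log2 ratio of anterior to posterior reads was 8.24 without Mir615 and 5.15 without the Mir196a genes, and 4.99 to 5.09 when either replicate was left out; Mir10a over Mir10b was 1.64 to 1.78. Between replicates 1 and 2, edgeR's exact test called 3 genes. The sign turned for Mir10b (-0.092 with TMM, -0.12 with DESeq2 size factors) and Mir196a-2 (-0.088 and -0.11); both settings shift all genes alike. All 6 genes were detected at a minimum of 1 read or with either replicate left out, and 5 at 100 reads, where Mir196a-1 was lost. Mir196a-1 had the fewest placed reads (63 and 131), and reads of the mature strand it shares with Mir196a-2 could not be placed at any depth. Of the remaining values for single genes, 45 moved by less than the spread or kept direction and call, 11 levels moved (5 with the both-strand column, 6 with all reads as the denominator), and 6 ratios kept direction and lost their call (4 under edgeR's exact test, and Mir196b under both other scalings).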
